A study of Mus musculus with 6 samples.

Results

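The genes described here encode the collagens, the laminins and other structural proteins of the extracellular matrix, together with the enzymes that cross-link them and those that make hyaluronan. They were chosen by gene symbol, and 102 of the 23420 genes in the table matched. RNA was sequenced from uteri of C57BL/6J mice aged 8 weeks, taken on day 4.5 of a pseudopregnancy induced by mating with vasectomized males. Each genotype had 3 libraries, each made from pooled RNA of 2 females. The control mice, Foxo1f/f, carried floxed alleles of Foxo1, a forkhead transcription factor, in which the second major coding exon is flanked by loxP sites. The knockout mice, PgrCre/+ Foxo1f/f (called Foxo1d/d below), carried the same alleles and in addition 1 copy of Cre recombinase placed in the progesterone receptor gene. This Cre acts in cells that express the receptor, which include cells of the uterus, the pituitary and the ovary, and the controls lacked it, so that the Cre allele and the deletion of Foxo1 cannot be told apart. The deposited values used here are the mean raw counts of each gene over the 3 libraries of a genotype, and the authors' own edgeR comparison in the same table was not used. Counts of each library were not analysed here, so that the spread between pools is not known, no test between genotypes was made here, and the differences below are given without a replicate check.

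Libraries of Foxo1f/f uteri totalled 26125014 counts on average, and those of Foxo1d/d uteri 27257963. Foxo1 itself averaged 3941 counts in the controls and 1456 in the knockouts (log2 ratio -1.50, counting interval -1.55 to -1.45), so the labels fit the targeted gene. Pgr, the gene that carries Cre, averaged 5469 and 6551 counts (0.20, interval 0.17 to 0.23). Every log2 ratio is that of Foxo1d/d over Foxo1f/f, taken from mean counts with 1 added and scaled to the genotype's total. Each counting interval is a 95% Wilson interval from the counts summed over libraries, and it covers counting error only. A level is the mean count per kilobase of exon and per 1000000 counts. Genes are compared with each other by level, except where ranks or shares of counts are named, which are not corrected for length. The uterine identity of the tissue showed in its markers, with levels of 174 for Hoxa10 and 127 for Hoxa11 in the control.

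The extracellular matrix is made of fibrils of collagen in the stroma and muscle, of thin basement membranes of laminin and collagen IV under epithelia and around vessels and muscle cells, and of glycoproteins and proteoglycans that link the fibres to each other and to cells. In rodents the uterine stroma thins and remodels its collagen around the time of implantation, and the basement membrane under the luminal epithelium is a barrier that the embryo meets on its way into the stroma.

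Of the 102 genes, 96 averaged 10 counts or more across the genotypes, and all counts and medians below are over genes past this minimum. Among them 8 were over 1.5-fold higher in Foxo1d/d uteri, a share of 8.33% beside 5.43% of all 15696 genes measured. The number over 1.5-fold lower was 4, a share of 4.17% beside 3.51% of all genes. Both shares lie near those of all genes at this line. At a lower line, a log2 ratio of 0.32 in either direction, the shares of the matrix genes were 21.9% higher and 17.7% lower, beside 12.5% and 8.996% of all genes, and the difference in shares was not tested. The median log2 ratio was 0.02 for the matrix genes, as it was for all genes (0.02), and 50 ratios lay above and 46 below 0. The middle of the distribution was wider, with a median absolute ratio of 0.24 beside 0.14 over all genes. The 8 higher genes were Col6a4, Col6a6, Col28a1, Col9a2, Lamb3, Acan, Col25a1 and Thbs4. The 4 lower genes were Lama3, Lama1, Col24a1 and Tnxb. Tnxb passed the 1.5-fold line closely, at 1.51-fold lower, and Col4a6 fell short of it at 1.48-fold. The 6 genes under the minimum were Col2a1, Col9a1, Col10a1, Col19a1, Matn1 and Matn3, most of them genes of cartilage, and the highest mean count among them was 5.67 for Col2a1 in either genotype.

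**Figure D1:**
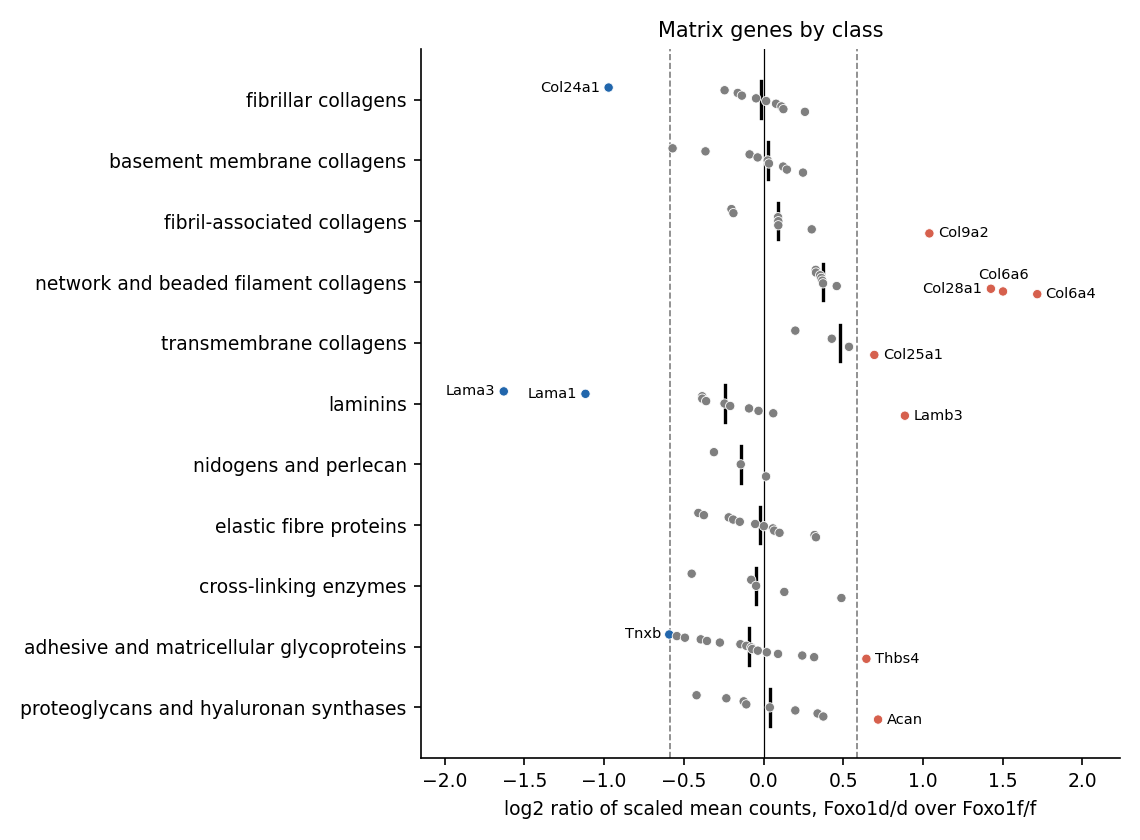
Log2 ratio of scaled mean counts, Foxo1d/d over Foxo1f/f, for the 96 matrix genes measured, with 1 point per gene, grouped into 11 classes by the role of the protein, with black bars at class medians, dashed lines at 1.5-fold and colour for genes beyond them. The class of network and beaded filament collagens lies to the right of 0 with all its 10 genes, and 9 of the 11 laminins lie to the left.

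The matrix genes took up 4.03% of all counts in the control (interval 4.02 to 4.03) and 4.08% in the knockout (4.08 to 4.09). They included 4 of the 10 genes with the most counts in the control, and 6 of the 10 in the knockout, where Col6a1 and Col6a2 joined Col3a1, Col1a2, Col1a1 and Sparc. By level, Sparc, a collagen-binding glycoprotein, stood first in both genotypes, followed by Col3a1, Dcn and Col1a2. The collagens alone took 2.27% of counts in the control and 2.48% in the knockout, and the laminins took 0.291% and 0.242%. Among the 68 matrix genes that averaged 1000 counts or more, only Col6a4 and Col6a6 were over 1.5-fold higher, and Lama3, Col24a1 and Tnxb were over 1.5-fold lower. These are 2.94% and 4.41% of the 68 genes, beside 1.75% and 1.42% of all 7103 genes as abundant. The remaining 7 genes past the line averaged fewer than 1000 counts, 6 of them higher (21.4% of 28, beside 8.48% of all genes of that range) and 1 lower (3.57% beside 5.24%).

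**Figure D2:**
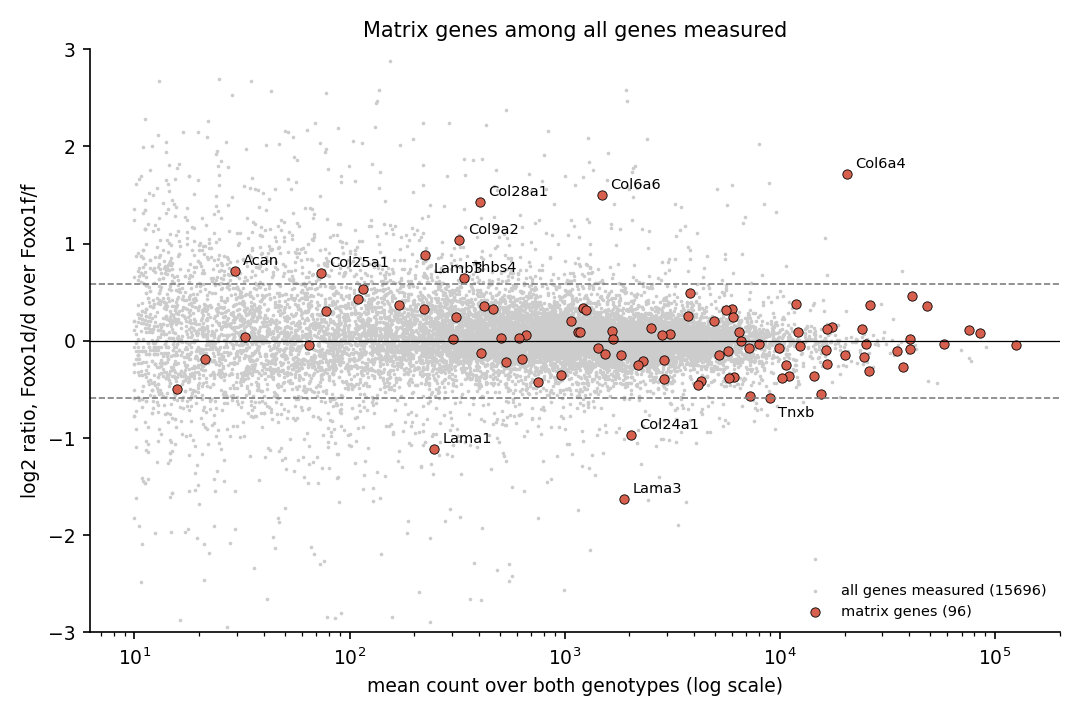
Log2 ratio (Foxo1d/d over Foxo1f/f) against the mean count over both genotypes on a log scale, for the 15696 genes measured (grey) and the 96 matrix genes (red), with dashed lines at 1.5-fold and 28 grey genes outside the plotted range. Col6a4 stands out among genes of its abundance at 1.72, while the genes with the most counts, such as Col3a1 at -0.05, lie close to 0.

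The fibrillar collagens, which form the tensile fibrils of stroma and muscle, were largely alike in both genotypes. Of 11 genes, 10 were measured, 5 with a ratio above and 5 with one below 0, and their median was -0.02. Col3a1, the single chain of collagen III, had mean counts of 124306 and 125549.7, and its ratio was -0.05 (-0.05 to -0.04). The chains of collagen I, Col1a1 and Col1a2, had ratios of 0.11 (0.10 to 0.12) and 0.08 (0.07 to 0.09). The level of Col1a1 was 0.798 times that of Col1a2 in the control and 0.817 times in the knockout, so the balance of the chains was kept. Collagen V, which sits inside collagen I fibrils and limits their width, had a lower Col5a2 at -0.16 and higher Col5a1 at 0.12 and Col5a3 at 0.26. The exception in the class was Col24a1, a minor fibrillar collagen known from developing bone and cornea. It had 2646 counts in the control and 1408 in the knockout, at a ratio of -0.97 (-1.03 to -0.92). Its level was 14.2 in the control and 7.23 in the knockout, against 462 and 499 for Col1a1, so that it makes up little of the fibrillar collagen RNA.

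Collagen VI forms beaded filaments that surround cells and tie basement membranes to the stroma. Its filaments need the α1 and α2 chains together with a longer chain, which is α3 or, in its place, α4, α5 or α6. All 6 genes were higher in Foxo1d/d uteri. Col6a4 averaged 9231 counts in the control and 31649.7 in the knockout, and its ratio of 1.72 (1.70 to 1.74), or 3.29-fold, was the highest of the matrix genes measured. Col6a6 averaged 751 and 2219.7 counts and was 2.83-fold higher (log2 interval 1.43 to 1.57). Col6a5, named here after its values were seen, had few counts (145 and 196) and a ratio of 0.37 (0.19 to 0.55). The common chains moved less, with ratios of 0.36 for Col6a1, 0.46 for Col6a2 and 0.37 for Col6a3, each between 1.29-fold and 1.37-fold higher. By level, Col6a4 stood below Col6a3 in the control, at 47.9 against 78.6, and above it in the knockout, at 158 against 102. Of the summed level of the α3 to α6 chains, Col6a4 made up 36.8% in the control and 58.6% in the knockout, while Col6a3 went from 60.3% to 37.8%. The level of Col6a1 was 387 and 498.

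The 3 genes for α4, α5 and α6 lie side by side on chromosome 9 (GRCm38.p6), with Col6a6 from 105689417 to 105828246, Col6a5 from 105856070 to 105962463 and Col6a4 from 105990318 to 106096828. Col6a5 lies in the middle and had the smallest ratio of the 3. Col6a1 and Col6a2 lie on chromosome 10, from 76708792 to 76726044 and from 76595756 to 76623630, and had ratios 0.10 apart. The promoters of these genes are shown because the genes were higher together. Each line gives bases before the start of transcription and outside the annotated gene and coding exons, on the strand of the gene, from RefSeq on GRCm38.p6. It begins 250 bases before the start. The line for Col6a1 ends 125 bases before the start, and the bases from there to the gene are not shown. The lines for Col6a4 and Col6a6 end 138 and 162 bases before the start, at the edge of the annotated gene. Capitals mark the matches to 3 motifs on either strand, which were the forkhead core GTAAACA or TGTTTAC, the TATA box TATAAA or TTTATA, and the CCAAT box CCAAT or ATTGG. The stretches are chr10:76726169-76726294 for Col6a1, chr10:76623631-76623880 for Col6a2, chr9:106096829-106096941 for Col6a4 and chr9:105828247-105828335 for Col6a6, all on the minus strand.
Col6a1: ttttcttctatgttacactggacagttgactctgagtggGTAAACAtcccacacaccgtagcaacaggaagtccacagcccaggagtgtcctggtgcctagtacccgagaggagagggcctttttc
Col6a2: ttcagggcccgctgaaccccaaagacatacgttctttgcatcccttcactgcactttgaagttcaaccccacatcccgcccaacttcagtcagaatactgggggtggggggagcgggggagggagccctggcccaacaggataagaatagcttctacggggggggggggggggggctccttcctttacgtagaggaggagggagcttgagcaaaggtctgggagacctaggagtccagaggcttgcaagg
Col6a4: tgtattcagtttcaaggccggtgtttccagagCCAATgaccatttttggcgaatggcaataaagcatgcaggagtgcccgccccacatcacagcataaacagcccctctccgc
Col6a6: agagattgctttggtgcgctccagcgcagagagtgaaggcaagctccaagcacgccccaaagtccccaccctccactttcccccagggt

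Col6a1 held a forkhead core that begins 211 bases before its start, and Col6a4 held a CCAAT box at 218 bases. The stretches shown for Col6a2 (250 bases) and Col6a6 (only 89 bases) held none of the motifs, and that of Col6a4 overlaps a noncoding exon of Gm36993. A promoter was given for 70 of the 102 matrix genes, and for 65 of those measured. Some genes have more than 1 listed start, and a gene was counted when the 250 bases before any of its starts held the letters. The forkhead core was present in 1 of these 65 genes (1.54%), which was Col6a1, beside 2.65% of 11426 measured genes and 3.54% of all 27025 genes with a promoter. The CCAAT box was present in 33.8% of the 65 genes and in 39.5% of measured genes and 37.5% of all genes. The TATA box was present in 13.8% of the 65 genes, in 8.52% of measured genes and in 14.3% of all genes. A match describes these letters only, and the absence of one says nothing of binding elsewhere.

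The other measured genes in the class of network and beaded filament collagens were also higher. Collagen IV, which forms networks too, is not in this class and is described below with the basement membranes. Col28a1, a relative of collagen VI known from peripheral nerve, went from 212 to 596 counts at 1.43 (1.30 to 1.56), although its level was low, at 1.92 and 5.17. Col8a1, Col8a2 and Col26a1, named after their values were seen, had ratios from 0.33 to 0.35, so that the 10 measured genes of the class all lay above 0 and had a median of 0.37 against 0.02 over all genes. The 4 transmembrane collagens, which span the plasma membrane, all lay above 0 as well, with a median of 0.48. Apart from Col23a1, with 975 and 1168 counts, their counts were low. Col25a1 had mean counts of 54.67 and 93 and a ratio of 0.69 (0.43 to 0.98). Col17a1, a component of the hemidesmosomes of basal epithelial cells, had 91.33 and 139 counts and a ratio of 0.54 (0.32 to 0.76), Col13a1 had a ratio of 0.43 (0.21 to 0.66), and Col23a1, the transmembrane collagen with the highest level, had a ratio of 0.20 (0.13 to 0.27).

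The fibril-associated collagens decorate the surface of collagen fibrils. Of 9 genes, 7 were measured and their median was 0.09. Those with the highest levels were near 0, with ratios of 0.09 for Col16a1 (level 85.0 in the control), 0.09 for Col14a1 (41.3) and -0.20 for Col12a1 (10.1). Col9a2, a chain of the cartilage collagen IX, went from 206 to 442 counts at 1.04 (0.91 to 1.18). Its partner chains, named after their values were seen, had few counts. Col9a1 had 2 and 3.33 counts, and Col9a3 had 67.67 and 87.33 counts, the latter with a ratio of 0.30 (0.04 to 0.57). Genes of cartilage were at low levels in general, with 3 of 6 cartilage markers under the count minimum and the other 3 below 0 (median -0.25).

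Collagen IV is the network collagen of all basement membranes, and its chains are encoded in pairs of genes that start next to each other and point away from each other. The classical pair Col4a1 and Col4a2, found in every basement membrane, had ratios of -0.09 (-0.10 to -0.08) and -0.04 (-0.05 to -0.02), with control levels of 234 and 147. Col4a3 and Col4a4, known mainly from kidney, lung and inner ear, were at levels of 2.19 and 2.24 with ratios of 0.03 and 0.03, whose intervals include 0. The third pair, Col4a5 and Col4a6, known from the basement membranes of smooth muscle, was lower. Col4a5 went from 12238 to 9920 counts at -0.36 (-0.39 to -0.34), and Col4a6 went from 8514 to 5982 at -0.57 (-0.60 to -0.54). Together they made up 14.1% and 9.67% of the summed level of collagen IV in the control and 12.2% and 7.22% in the knockout. The start sites of Col4a1 and Col4a2 lie 21 bases apart, and those of Col4a5 and Col4a6 1343 bases apart. Col4a1 overlaps Col4a2, and Col4a3 overlaps Col4a4, at the 5′ ends, where reads cannot be given to one gene without strand information. Col18a1, a basement membrane collagen with heparan sulfate chains, had a ratio of 0.12 at a level of 148.

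Laminins are trimers of an α, a β and a γ chain that start the assembly of basement membranes, and the α chain sets which cell type receptors they bind. Of the 11 genes, 9 were lower and 2 higher in Foxo1d/d uteri, and the median was -0.24 against 0.02 over all genes. Lama3, the α chain of the laminin that anchors epithelia through hemidesmosomes, went from 2834 to 955 counts at -1.63 (-1.69 to -1.57). It had the lowest ratio of the matrix genes measured and was 3.10-fold lower. Lamb3, the β chain of the same trimer, did not follow it and went from 153 to 296 counts at 0.89 (0.73 to 1.05). The level of Lama3 was 10.1 in the control and 3.26 in the knockout, which is 8.14% and 3.40% of the summed level of the α chains. Lamb3 made up 0.765% and 1.74% of the summed level of the β chains.

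Lama1, the α chain of embryonic and some adult epithelial basement membranes, went from 335 to 161 counts at -1.12 (-1.28 to -0.96), at a control level of 1.35. The α chains with the highest levels were Lama2, the chain of muscle, and Lama4, the chain of vessels and stroma. Both were moderately lower, Lama2 at -0.38 (-0.41 to -0.36) and Lama4 at -0.38 (-0.42 to -0.35), each by less than 1.5-fold. Lama5, the broad epithelial and vascular chain, was close to even at -0.03 (-0.06 to -0.01), and its share of the α chain level went from 21.5% to 27.2%. The common β chains were lower, Lamb1 at -0.36 (-0.38 to -0.34) and Lamb2 at -0.24 (-0.27 to -0.22). Lamc1, the γ chain of most laminins, was at -0.09 (-0.11 to -0.07) and Lamc3 at -0.21 (-0.26 to -0.16). The summed level of the α chains was 124 in the control and 95.8 in the knockout, and that of the β chains 184 and 149.8.

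**Figure D3:**
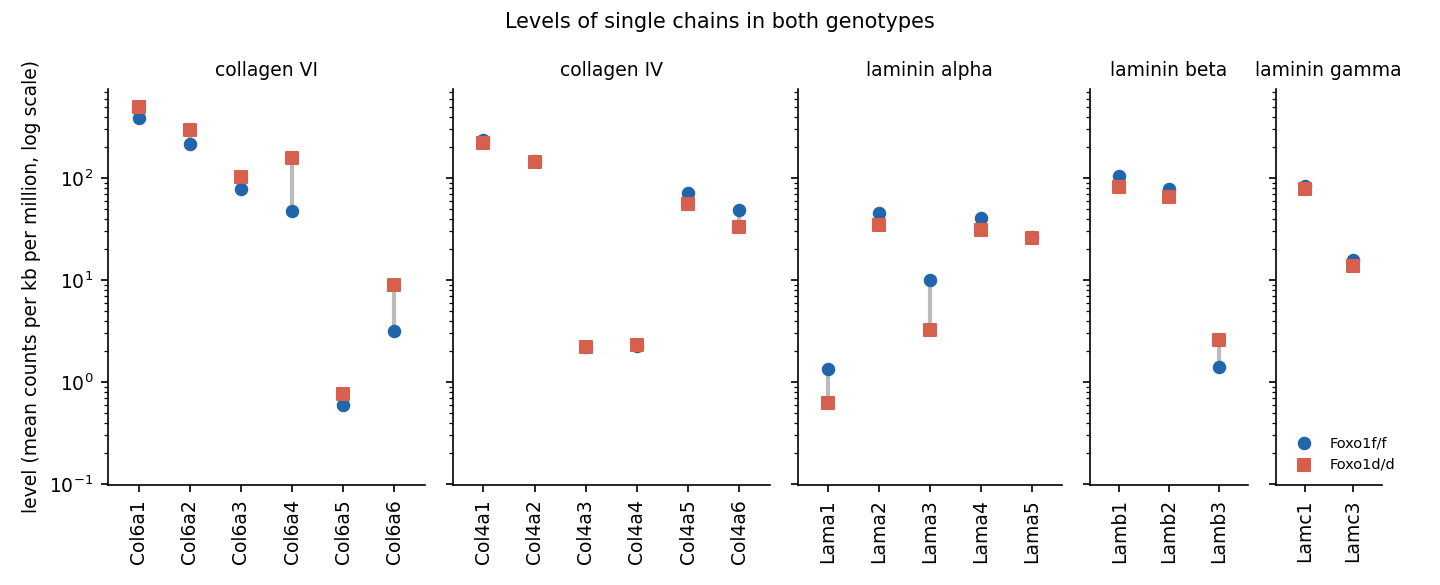
Levels (mean counts per kilobase of exon and per 1000000 counts, log scale) of the chains of collagen VI and collagen IV and of 10 laminin chains in Foxo1f/f (blue circles) and Foxo1d/d (red squares), each point being the authors' mean over 3 libraries with no error bar. Col6a4 and Col6a6 have the widest upward gaps and Lama3 and Lama1 the widest downward gaps, while Col4a1 and Col4a2 nearly coincide.

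Nidogens and perlecan bridge the laminin and collagen IV networks. Nid1 had a level of 177 and a ratio of -0.31 (-0.33 to -0.30), Hspg2 had a ratio of -0.14 (-0.16 to -0.13), and Nid2 one of 0.02 (-0.04 to 0.07), which turns below 0 when the ratios are centred on the median gene. In bulk tissue, fewer cells of a type and less RNA per cell cannot be told apart. Beside the lower laminins, Nid1, Col4a5 and Col4a6, all 9 smooth muscle markers had ratios below 0, with a median of -0.27. They ranged from -0.43 (Myh11) to -0.01 (Synpo2), and the interval of Synpo2 includes 0. Their summed level was 2818 in the control and 2333 in the knockout, with Tagln the most abundant in the control and Acta2 in the knockout. All 7 endothelial markers were lower too, with a median of -0.22, a summed level of 379 and 323 and Pecam1 the most abundant. None of these markers was at 0 or past 1.5-fold. The basement membrane genes lay on both sides of these medians. Lama2 (-0.38), Hspg2 (-0.14) and Lamc1 (-0.09) lay inside the range of the muscle markers, with Hspg2 and Lamc1 above both medians. Lama3 (-1.63), Lama1 (-1.12) and Col4a6 (-0.57) lay below every muscle and endothelial marker, and Lamb3 (0.89) lay above all of them. The part of muscle and vessels in the basement membrane values was not tested.

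Elastic fibres consist of elastin on a scaffold of fibrillins, with fibulins and emilins that help to assemble them. None of the 12 genes was past 1.5-fold, 6 lay above and 6 below 0, and the median was -0.03. Efemp1 (fibulin-3) was lowest of them at -0.41 (-0.44 to -0.37), with 4807 and 3778 counts, and Fbln1 followed at -0.37. Emilin1 was even at 0.00 (-0.03 to 0.03). Eln, named after its values were seen, was the highest at 0.33 (0.30 to 0.36). Among the lysyl oxidases, which cross-link collagen and elastin, the leading pair of the control moved apart. Lox had 4724 and 3606 counts and a ratio of -0.45 (-0.49 to -0.41), and Loxl2 had 3104 and 4543 counts and a ratio of 0.49 (0.45 to 0.53). The level of Lox was 37.8 in the control and 27.7 in the knockout, and that of Loxl2 39.1 and 54.8, which is 33.0% and 43.6% of the family. Loxl1 was at 0.13 (0.08 to 0.18), and the summed level of the 5 enzymes was 118 and 126.

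Of 18 adhesive and matricellular glycoproteins, 16 were measured, 11 below and 5 above 0, with a median of -0.09. The most abundant by level moved little or moderately. Sparc was at -0.04 (-0.05 to -0.03) with a level of 961 and 937, Mgp, an inhibitor of calcification, at -0.08 (-0.10 to -0.05), and Sparcl1 at -0.27 (-0.29 to -0.26). Tnxb, a tenascin that spaces collagen fibrils, went from 10597 to 7339 counts at -0.59 (-0.62 to -0.57). Postn, a matricellular protein that takes part in collagen assembly, went from 18126 to 12975 at -0.54 (-0.56 to -0.52) and stood 12th by level in the control and 16th in the knockout. Matn4 was at -0.49 on 18.33 and 13.33 counts, with an interval from -1.10 to 0.06 that includes 0, so that its direction is not set by these counts. Thbs4, a thrombospondin of muscle and tendon matrix, was the one higher past 1.5-fold, with 258 and 421 counts and a ratio of 0.64 (0.52 to 0.78). Fibronectin, Fn1, named after its values were seen, was at 0.02 (0.01 to 0.03) on 39195 and 41485 counts, and it turns below 0 when the ratios are centred on the median gene.

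The small proteoglycans that coat collagen fibrils differed among themselves. Dcn, with a level of 704 the first of them, was at -0.11 (-0.12 to -0.10) and Bgn at -0.23 (-0.25 to -0.22), whereas Lum was at 0.37 (0.35 to 0.40) with 10124 and 13696 counts. Acan, the large proteoglycan of cartilage, was at 0.72 (0.30 to 1.19) on only 21.33 and 37.33 counts. Of the enzymes that make hyaluronan, a water-binding polymer of the implanting uterus, Has2 was the most abundant. It was at -0.42 (-0.51 to -0.34) with 847 and 660 counts, and its level was 7.65 and 5.71. The synthases together had a level of 10.9 in the control and 8.79 in the knockout.

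Genes of the matrix that neighbour each other on a chromosome, with at most 100 kilobases between them, formed 10 pairs, and both genes were measured in 9. The sign was shared in 7 of these pairs, and the median absolute difference of the ratios was 0.15. No value for all neighbouring genes is given here, so these numbers are not read as a trait of neighbours. Pairs with close values included Col3a1 and Col5a2, 24624 bases apart, at -0.05 and -0.16. Dcn and Lum, 47337 bases apart, lay on both sides of 0 at -0.11 and 0.37. The pairs that Col6a5 forms with Col6a4 and Col6a6 differed most, by 1.35 and 1.13. The promoter of Col3a1 is shown beside these values as that of the most abundant collagen by level. It holds the letters of a TATA box (capitals), which begin 117 bases before the start, and whether they act as one was not tested. The stretch lies at chr1:45311288-45311537 on the plus strand.
Col3a1: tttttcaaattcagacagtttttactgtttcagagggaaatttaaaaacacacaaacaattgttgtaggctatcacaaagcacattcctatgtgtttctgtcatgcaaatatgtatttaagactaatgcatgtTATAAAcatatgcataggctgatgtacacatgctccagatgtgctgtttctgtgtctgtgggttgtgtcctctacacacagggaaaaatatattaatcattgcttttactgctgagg

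Other genes that make, modify or bind matrix lie outside the symbol rule, and their shares stand beside the same 5.43% higher and 3.51% lower of all genes. Of 24 measured genes of collagen processing, 1 was over 1.5-fold higher (4.17%) and 1 over 1.5-fold lower (4.17%), and their median was -0.00. P4ha3, a subunit of the enzyme that hydroxylates collagen prolines, was the higher one at 1.10 (0.93 to 1.28) with 122 and 274 counts. Tll1, a protease that trims procollagen, was the lower one at -0.88 (-0.97 to -0.79) with 958 and 543 counts. Serpinh1, the collagen chaperone and the most abundant of the list by level, was at 0.07. Of 14 genes of hyaluronan turnover and binding, Hapln1 (7.14%), a link protein, was over 1.5-fold higher at 0.72 (0.58 to 0.87), none was lower by that much, and the median was 0.14. Of 46 measured matrix genes that the rule leaves out, 1 was higher (2.17%) and 3 were lower (6.52%) past 1.5-fold, with a median of -0.06. These shares rest on few genes, and their differences from the shares of all genes were not tested. The lower genes were Frem1, a protein of the epithelial basement membrane, at -0.91 (-0.98 to -0.83), Nov at -0.82 and Spock2 at -0.61, and the higher gene was Wisp2 at 0.99 on 19.33 and 41 counts.

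Other cell types of the uterus also had markers that differed between the genotypes. Stromal markers had a median of -0.08, with 7 of 8 below 0 and a range from -0.26 (Pdgfra) to 0.19 (Thy1). Their summed level was 1107 and 1016, and Vim, the most abundant, was at -0.24. Epithelial markers had a median of 0.26 and a summed level of 312 and 371, with 7 of 8 above 0 and Krt19 past 1.5-fold at 1.22. Markers of basal or squamous epithelium, given here because Lama3, Lamb3 and Col17a1 belong to the hemidesmosome, had 3 of 5 genes over 1.5-fold higher. Krt15 was at 3.44, Krt5 at 2.58 and Krt14 at 2.01, Trp63 was at 0.08, and Dsg3 was over 1.5-fold lower at -1.22. The summed level of these 5 genes was low, at 2.31 in the control and 10.1 in the knockout, with Krt5 the most abundant in the control and Krt15 in the knockout. The paper says that cervixes were discarded where it describes RNA for RT-qPCR, and does not say so for the sequenced uteri.

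All 7 markers of adipocytes were over 1.5-fold higher, with a median of 1.86 and ratios from 1.70 (Lep) to 2.19 (Cidec). Their summed level was 16.4 in the control and 58.8 in the knockout, with Fabp4 the most abundant in the control and Cfd in the knockout, beside levels of 47.9 and 158 for Col6a4 alone. All 7 leukocyte markers lay above 0, with a median of 0.38 and a summed level of 102 and 124, Csf1r being the most abundant and Cd3e past 1.5-fold at 1.09. Mesothelial markers had 4 of 5 above 0 (median 0.23). Wt1, the most abundant of them, was the one below 0, at -0.24 (-0.28 to -0.20), and their summed level was 69.5 and 64.9. Nerve and Schwann cell markers, which bear on Col28a1, had a median of -0.04 and a summed level of 7.85 and 7.53, with Ncam1 the most abundant in the control and Mbp in the knockout. Of the 3 gland markers found, Spink3 was at -4.70 and the others were Foxa2 at 0.04 and Wfdc3 at 0.38. None of the markers of these types was at 0 counts in either genotype. The part of adipocytes, leukocytes and basal epithelium in the higher collagen VI, collagen XXVIII and Lamb3 values was not tested.

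**Figure D4:**
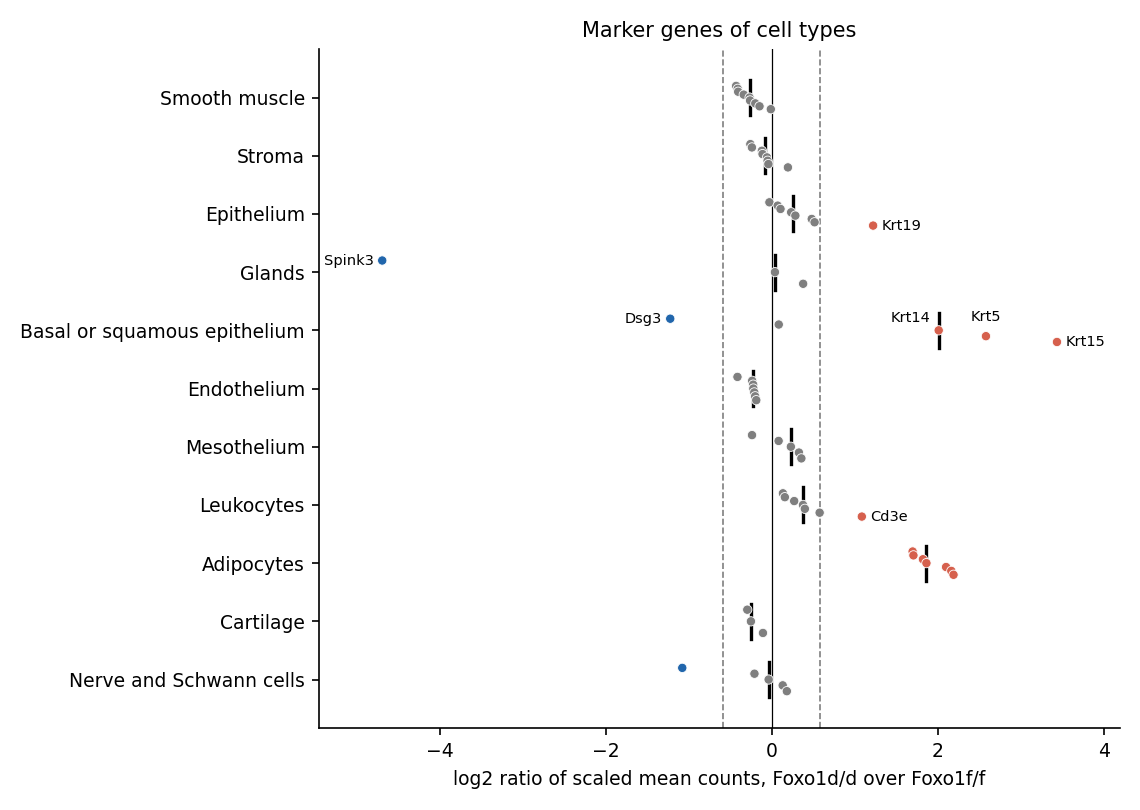
Log2 ratio (Foxo1d/d over Foxo1f/f) of marker genes for 11 cell types, with 1 point per gene, black bars for list medians and dashed lines at 1.5-fold. All 9 smooth muscle and all 7 endothelial markers lie below 0, and all 7 adipocyte markers lie beyond 1.5-fold on the higher side.

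These values describe RNA of bulk uterine tissue at 1 time of pseudopregnancy, without an embryo. They do not show where in the tissue a gene was expressed, nor the amount of protein, its processing or its deposition in the matrix. A chain whose RNA differs from that of its partners need not differ in the assembled trimer. With only a mean per genotype, small ratios such as those of the class medians have no measure of spread between pools.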

How the data were processed

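Uterine RNA was sequenced as 100-base paired-end reads from poly(A)-selected TruSeq libraries. The authors trimmed 11 bases at the 5′ end, aligned with STAR, dropped duplicates (Picard), counted over RefSeq genes (HTSeq) and ran edgeR, with no versions stated. Their methods name mm10 and the submitters' processing notes mm9. The deposited table holds mean raw counts per genotype, all that was used here. The authors' signed fold change, average log2 CPM, p-value and FDR were not used. Single libraries are not in the table, so no test was made.

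Ratios were computed in Python 3.11.15 (numpy 2.4.6, pandas 2.3.3, matplotlib 3.10.9) with a pseudocount of 1, a minimum mean count of 10 and a line of 1.5-fold; folds were computed without the pseudocount. Exon lengths come from GENCODE M21 transcripts paired with RefSeq mRNAs, or basic transcripts where a gene had none, and positions from RefSeq on GRCm38.p6. Steps were tested on simulated data. Genes given in full are the 10 highest and 10 lowest ratios, the 3 highest levels of each class, and the chains of collagens I, III, IV and V and of the laminins. Not every gene of this rule is given in the text. Genes named beyond these are marked as named after their values were seen, or belong to the lists of related and marker genes. The members and lists were chosen with earlier results of these data known. Alternatives changed the pseudocount, the scaling, the count minimum and the fold.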

Additional observations from a re-analysis of the deposited data

How the results depend on the processing

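No paired analysis was possible because the table holds means of each genotype and no values of single libraries, and for the same reason no library was left out. The count of matrix genes past 1.5-fold was 8 higher and 4 lower (8.33% and 4.17%, beside 5.43% and 3.51% of all genes). With a lower line, at a log2 ratio of 0.32, it was 21 higher and 17 lower (21.9% and 17.7%, beside 12.5% and 8.996%), and with a line of 2-fold it was 4 higher and 2 lower (4.17% and 2.08%, beside 1.99% and 1.40%), since the line itself sets the number of genes. Centring on the median gene shifted every ratio by -0.025, and a trimmed mean of M-values by -0.026. The median of the network and beaded filament collagens then moved from 0.37 to 0.35 and 0.34, that of the laminins from -0.24 to -0.27 and -0.27, that of the elastic fibre proteins from -0.03 to -0.0498 and -0.0513, and that of the nidogens and perlecan from -0.14 to -0.17 and -0.17. The median of all matrix genes turned from 0.02 to -0.01 under both scalings, and the lower genes became 5 with Col4a6. Col11a2, Col4a3, Emilin1, Fn1 and Nid2, all with ratios under 0.03, changed sign under a scaling, and none of the 10 highest or 10 lowest genes did. With a minimum mean count of 100 the higher genes were 6 and the lower 4 of 89 (6.74% and 4.49%, beside 3.17% and 2.14%), and with 1 count in either genotype they were 10 and 4 of 102 (9.80% and 3.92%, beside 8.11% and 5.79%). Under the minimum of 100 the medians of 3 classes crossed 0, from -0.03 to 0.00 for the elastic fibre proteins, from -0.05 to 0.03 for the cross-linking enzymes and from 0.04 to -0.11 for the proteoglycans and hyaluronan synthases. The median of the basement membrane collagens crossed 0 under the trimmed mean of M-values, from 0.03 to -0.00. The direction of these 4 medians is thus not settled. Pseudocounts of 0.1 and 5 kept all 96 ratios within their counting intervals, while centring put 30 outside and the trimmed mean of M-values 32. Counting intervals do not cover differences between pools, and the spread between animals is not known here.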
